A study of Mus musculus with 6 samples.

Results

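The genes described here encode the machinery that fills melanosomes with pigment proteins and carries the finished organelles to the cell edge. The 10 members were chosen by name: Rab27a, Mlph and Myo5a, which join melanosomes to actin, Rab32 and Rab38, which direct cargo to them, Hps1 and Hps4, the subunits of the complex BLOC-3, and Hps3, Hps5 and Hps6, the subunits of BLOC-2. All 10 were found by Entrez Gene number among the 14883 genes of the table, and all 10 passed the filter on low counts that left 12377 genes for testing. RNA was sequenced from B16F10luc2, a pigment cell tumour line of the mouse derived from the B16 melanoma. Cells of both groups grew on the same kind of elastic plate in DMEM with serum. The 3 static samples were left unstretched, and the 3 stretch samples underwent cyclic equibiaxial stretch of 15% at 15 cycles per minute for 24 h. The comparison asks how mRNA levels of the stretched cells differ from those of static cells. The labels do not say whether replicates were separate cultures, so the p-values cover only how much these particular samples vary, possibly for technical reasons. All samples are of 1 tumour line, which limits them as a model of normal pigment cells, and mRNA levels say nothing of where melanosomes lay.

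Melanosomes are lysosome-related organelles that arise from endosomes. Pigment enzymes made in the secretory pathway reach the maturing organelle through endosomal carriers, whose formation and docking depend on the adaptors AP-1 and AP-3, the complexes BLOC-1, BLOC-2 and BLOC-3 and the small GTPases RAB32 and RAB38. BLOC-3 is the exchange factor that activates both GTPases, and loss of BLOC-2 or BLOC-3 subunits causes Hermansky-Pudlak syndrome, with pale skin, hair and eyes. Mature melanosomes move along microtubules and are then caught in the actin-rich periphery by a chain of RAB27A on the organelle, melanophilin (Mlph) as the linker and the motor myosin Va (Myo5a). Mutations of Rab27a, Mlph and Myo5a give the coat colour mutants ashen, leaden and dilute.

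Libraries held 19469286 to 36351400 estimated counts, and TMM factors, which set libraries to a common scale, were 0.966 to 1.02. The melanocytic markers Mitf, Sox10, Pmel, Mlana, Tyr and Dct were all present. Their summed level was 13091 to 14391 CPM, counts relative to the TMM-scaled library total, in static and 12069 to 12505 CPM in stretched libraries. These 6 did not move together: 1 was higher (Mitf) and 2 lower (Pmel and Dct) at an edgeR adjusted p under 0.05. The largest part of the sum was Pmel, at 6073 ± 504 CPM in static and 4982 ± 171 CPM in stretched libraries (n = 3 per group). Of the 18 markers of other cell types 8 were in the table. Their sums reached 17.9 CPM for fibroblast markers, 2.34 for leukocyte markers, 0.589 for endothelial markers and 0.770 for keratinocyte and epithelial markers. The sum of the fibroblast markers overlapped between the groups, at 12.98 to 17.9 CPM in static and 15.7 to 17.2 CPM in stretched libraries. Of the 3 that were tested, 1 was higher and 1 lower (edgeR adjusted p under 0.05), which the sum does not show. In bulk samples fewer cells with a transcript and less transcript per cell cannot be told apart. Among all tested genes 50.9% were called in edgeR's quasi-likelihood test (adjusted p under 0.05), and 49.0% of the calls were higher under stretch. With scaling by library size alone that share was 63.2%.

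The promoters of the members are shown because some share a short sequence. RefSeq windows of GRCm38.p6, from 250 bases before to 50 bases after a start site, were matched for 9 members, with 11 windows in all. Rab38 had no window and was not searched. The letters CACGTG, an E-box that MITF/TFE, MYC and USF factors can bind and that reads the same on both strands, stood in windows of 5 of these 9 genes, against 11.8% of the 9892 tested genes with a window. By window it was 5 of 11 against 9.95% of windows of tested genes and 7.15% of all windows. The related letters CATGTG, searched on both strands, stood only in a window of Hps1, at position -14, against 10.3% of tested genes. Positions count from the start site of the window, with -1 as the base before it. That site need not be the end of the gene span given below. The stretches of 100 bases below carry CACGTG in capitals and are written 5′ to 3′ along the strand of the gene. They lie at chr1:90915005-90915104 on the plus strand for Mlph, chr9:73063898-73063997 on the plus strand for Rab27a (the second of its windows), chr19:42779974-42780073 on the minus strand for Hps1, chr3:20035306-20035405 on the minus strand for Hps3 and chr7:46796022-46796121 on the minus strand for Hps5.
Mlph: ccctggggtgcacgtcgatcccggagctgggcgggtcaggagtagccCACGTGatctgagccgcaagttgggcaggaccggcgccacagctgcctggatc
Rab27a: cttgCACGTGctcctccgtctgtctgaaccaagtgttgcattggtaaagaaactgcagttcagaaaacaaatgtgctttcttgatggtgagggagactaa
Hps1: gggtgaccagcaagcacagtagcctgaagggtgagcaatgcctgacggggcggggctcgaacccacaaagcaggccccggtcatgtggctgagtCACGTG
Hps3: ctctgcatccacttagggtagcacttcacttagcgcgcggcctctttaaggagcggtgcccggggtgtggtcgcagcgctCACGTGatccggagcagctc
Hps5: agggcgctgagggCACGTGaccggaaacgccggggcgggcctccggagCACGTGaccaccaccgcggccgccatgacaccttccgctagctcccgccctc
The E-box began at position -48 in Mlph, -246 in Rab27a, -15 in Hps3 and -1 in Hps1, where it spans the start site. Hps5 held it at both -227 and -192. The E-boxes of Mlph, Rab27a, Hps1 and Hps3 lie inside the gene spans given below, and those of Hps5 lie outside its span. Of these 5 genes Hps3 was called higher and Hps1 lower, and the other 3 were not called, as described below. The windows of Myo5a, Rab32, Hps4 and Hps6 held neither motif, which says only that these letters are not in those windows.

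Levels of different genes were compared per kilobase of the longest annotated transcript, and the order depended in part on the length used. On this scale Rab38 was the most abundant member in static cells, at 198 ± 20.3 CPM per kilobase (mean ± SD, n = 3). Mlph followed at 78.4 ± 5.55, Rab27a at 57.6 ± 0.441, Myo5a at 51.6 ± 1.17 and Rab32 at 25.4 ± 2.15 CPM per kilobase. The 5 Hps genes were lower, from 15.5 ± 0.567 for Hps3 to 5.33 ± 0.0915 CPM per kilobase for Hps6. The order from highest to lowest was the same in stretched cells. Hps3 and Hps5 did not differ beyond their spread in either group, and Rab27a and Myo5a, which were apart in static cells, stood at 59.2 ± 1.16 and 58.9 ± 1.56 CPM per kilobase under stretch. Lengths of coding sequence exclude the long untranslated ends of some of these transcripts. Per kilobase of coding sequence, Rab27a stood above Mlph in static cells (275 ± 2.11 against 199 ± 14.1 CPM per coding kilobase) and Hps5 above Hps3. The other members kept their place. Rab27a and Myo5a did not meet under stretch on that scale, at 283 ± 5.54 and 124 ± 3.29 CPM per coding kilobase.

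**Figure D1:**
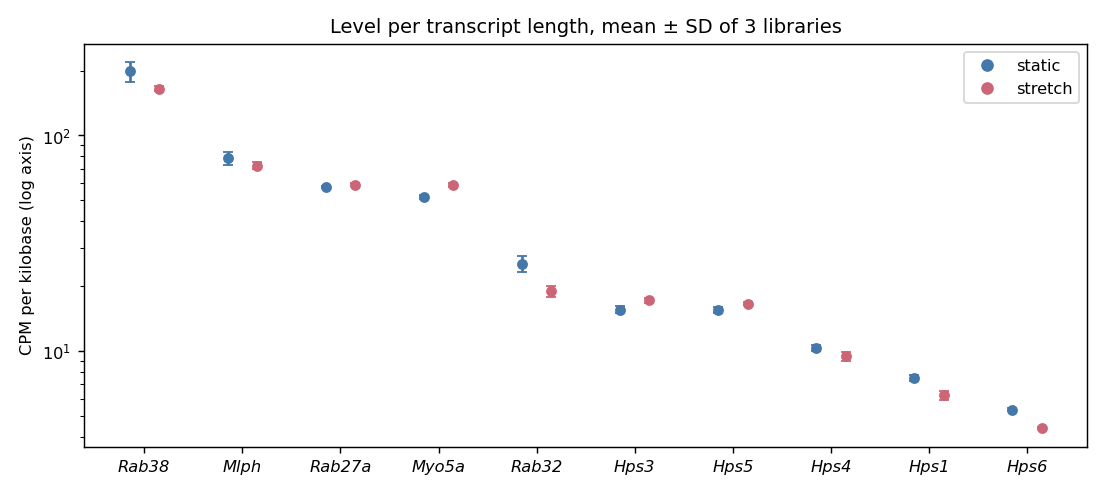
Level of each member in CPM per kilobase of the longest transcript (log axis), with points for the mean and bars for the SD of 3 libraries, in static (blue) and stretch (red) samples. Rab38 at 198 and Hps6 at 5.33 CPM per kilobase in static cells mark the ends of the order. Rab27a and Myo5a meet under stretch on this scale, but not per kilobase of coding sequence.

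Under stretch the members did not move as one. Rab32, Rab38, Hps1, Hps4 and Hps6 fell and Myo5a and Hps3 rose, while Rab27a, Mlph and Hps5 did not pass the test. That makes 7 of 10 members called, against 50.9% of all tested genes, with 5 lower (25.9% of all tested genes were called lower) and 2 higher (24.9% were called higher). The median log2 fold change of the members was -0.12, against 0.00377 over all tested genes, and their median absolute log2 fold change of 0.166 lay close to the 0.176 of all tested genes. The changes were small: the largest was that of Rab32, and 16.7% of all tested genes had a larger one. Static and stretched libraries did not overlap for 8 members, 5 lower and 3 higher, as was the case for 58.5% of tested genes. When the test asked for more than 1.2-fold (glmTreat in edgeR), Rab32 alone was called among the members (adjusted p = 0.0231), and 12.9% of all tested genes.

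**Figure D2:**
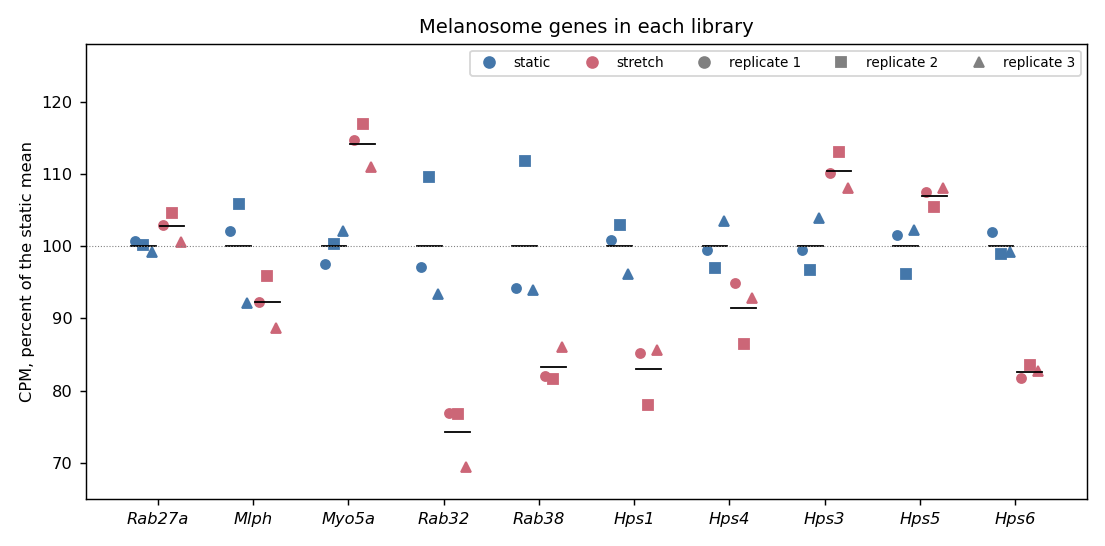
CPM of each member in each of the 6 libraries, as a percentage of the mean of the 3 static libraries, with blue for static, red for stretch, a marker shape for each replicate and a black bar for the group mean. Stretched libraries lie below all static ones for Rab32, Rab38, Hps1, Hps4 and Hps6, above them for Myo5a, Hps3 and Hps5, and overlap them for Rab27a and Mlph.

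GC content and transcript length differed between the members, and some calls changed when an offset for them was added to the fit. Hps6, Hps1, Hps4 and Mlph had the transcripts richest in GC, at 59.7%, 57.0%, 55.9% and 54.6%, and Hps3 the poorest at 43.6%. Rab32 and Rab38 fell with GC contents of 47.7% and 46.7%. With an offset per library for GC content and length together (the combined offset), 1 member was called higher (Hps5) and 3 lower (Rab32, Rab38 and Hps1), and 48.7% of all tested genes were called. No member changed sign in any of the 19 alternative fits.

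**Figure D3:**
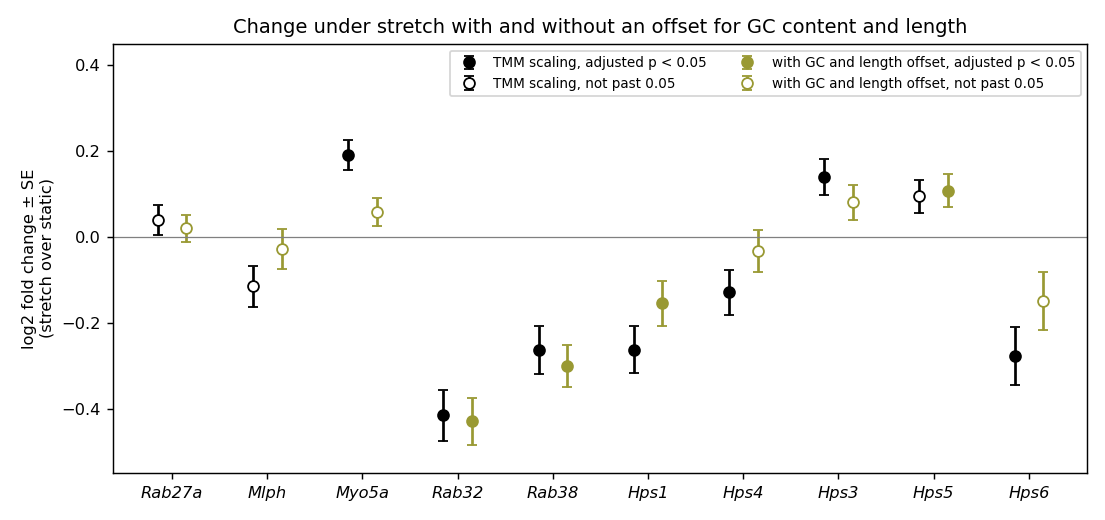
Log2 fold change of each member, stretch over static, with its SE, with TMM scaling (black) and with an added offset for GC content and transcript length (olive); filled points passed an adjusted p of 0.05. Rab32 and Rab38 keep their size with the offset, while Myo5a goes from 0.19 to 0.06 and Hps6 from -0.28 to -0.15.

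The GTPases that direct cargo fell together. Rab32 (Entrez Gene 67844, chromosome 10, 10545039 to 10558207 in GRCm38), a GTPase of lysosome-related organelles and mitochondria, was at 53.0, 59.8 and 51.0 CPM in static replicates 1, 2 and 3 and at 42.0, 41.9 and 37.9 CPM in the stretched ones. Every stretched library lay below every static one. The log2 fold change was -0.42 (SE 0.0592, edgeR adjusted p = 3.94e-05), so that the level fell by 25.03%. Under the combined offset the log2 fold change was -0.43, and without static replicate 2 it was -0.35.

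Rab38 (Entrez Gene 72433, chromosome 7, 88430273 to 88491572), its paralog, is mutated in the chocolate mouse, whose coat is brown. Static libraries held 295, 349.7 and 294 CPM and stretched libraries 256, 255.4 and 269 CPM. Static replicate 2 stood above the other static libraries, and the groups did not overlap. That library was also the highest static one for Rab32, Mlph and, by less, Hps1. The same held for some partner genes described below, such as Tyrp1 and Vps33a, though not for Vps11. Rab38 fell by 16.7% (log2 fold change -0.26, SE 0.0558, edgeR adjusted p = 0.00116). Without static replicate 2 the log2 fold change was -0.18, with an edgeR adjusted p of 0.000236, and under the combined offset it was -0.30.

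The balance of the pair was read from the ratio of their counts within each library, which no scaling between libraries can change. Rab38 had 5.56, 5.84 and 5.76 counts for each count of Rab32 in static replicates 1, 2 and 3, and 6.11, 6.10 and 7.08 in the stretched ones. The stretched ratios were all higher, by 0.17 on the log2 scale, with stretch replicate 3 well above the others. The exact two-sided permutation test gave p = 0.1, the smallest that 3 against 3 samples allow (0.114 after Benjamini-Hochberg adjustment over the 8 pairs compared), so no pair could pass 0.05. Without stretch replicate 3 the difference was 0.09. How the counts of paralogs were divided between them is uncertain in estimated counts. For this and the other pairs below, no share of ratios that do not overlap was taken over other gene pairs.

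Both subunits of BLOC-3, the activator of RAB32 and RAB38, were lower. Hps1 (Entrez Gene 192236, chromosome 19, 42755190 to 42780015), mutated in the pale ear mouse, was at 31.7, 32.3 and 30.2 CPM in static and 26.7, 24.5 and 26.9 CPM in stretched libraries. The groups were well apart, and Hps1 fell by 16.7% (log2 fold change -0.26, SE 0.0547, edgeR adjusted p = 0.00100). The combined offset brought the log2 fold change to -0.15, still called (adjusted p = 0.0237).

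Hps4 (Entrez Gene 192232, chromosome 5, 112342983 to 112378424), mutated in the light ear mouse, was at 34.4, 33.6 and 35.8 CPM in static and 32.8, 29.9 and 32.1 CPM in stretched libraries. Static and stretched libraries came close without overlap, and the log2 fold change of -0.13 (SE 0.0518) lay at the threshold (edgeR adjusted p = 0.0499). The call did not hold in DESeq2 (adjusted p = 0.129), in limma-voom (0.0506) or under the combined offset (-0.03, adjusted p = 0.620). Leaving out any 1 library other than static replicate 2 also ended it (edgeR adjusted p = 0.0538 to 0.197). Hps4 shares 58 bases of its span with Srrd, which had a log2 fold change of -0.06. The ratio of Hps4 to Hps1 counts was 1.09, 1.04 and 1.19 in static and 1.23, 1.22 and 1.196 in stretched libraries, which did not overlap (exact permutation p = 0.1).

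The BLOC-2 subunits, which are thought to tether carriers to melanosomes, went in different directions. Hps3 (Entrez Gene 12807, chromosome 3, 19995945 to 20035334), mutated in the cocoa mouse, was at 62.9, 61.1 and 65.7 CPM in static and 69.6, 71.5 and 68.3 CPM in stretched libraries, which all lay higher. It rose by a log2 fold change of 0.14 (SE 0.0409, edgeR adjusted p = 0.0102). The call was lost without stretch replicate 2 (0.12, adjusted p = 0.0529) and under the combined offset (0.08, adjusted p = 0.115). Its span shares 13806 bases with that of Cp, the ceruloplasmin gene, which fell from 47.0 ± 2.04 to 18.95 ± 1.24 CPM (n = 3 per group). These spans include introns, and how much of the overlap lies in exons was not examined. Whether reads were counted by strand is not known, without which those of any shared exon have no sure owner. The part of Cp in the Hps3 counts was not tested.

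Hps5 (Entrez Gene 246694, chromosome 7, 46760466 to 46796065), mutated in the ruby-eye-2 mouse, was at 78.0, 73.8 and 78.5 CPM in static and 82.5, 81.0 and 82.9 CPM in stretched libraries. No library of one group reached the other, but the log2 fold change of 0.09 (SE 0.0383) just missed the threshold (edgeR adjusted p = 0.0509). It passed under the combined offset (0.11, adjusted p = 0.0287), with scaling by library size alone (0.16, adjusted p = 0.00591) and without static replicate 3 (adjusted p = 0.0395).

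Hps6 (Entrez Gene 20170, chromosome 19, 46003478 to 46006173), mutated in the ruby-eye mouse, was the least abundant member, at 14.5, 14.0 and 14.1 CPM in static and 11.6, 11.9 and 11.7 CPM in stretched libraries. The replicates were close together and the groups far apart. Hps6 fell by 17.5% (log2 fold change -0.28, SE 0.0673, edgeR adjusted p = 0.00307). Under the combined offset the log2 fold change was -0.15 and no longer passed (adjusted p = 0.0779). The span of Hps6 lies within that of the gene model 4930505N22Rik, which was at 0.305 ± 0.127 CPM in static and 0.155 ± 0.0513 CPM in stretched libraries (n = 3 per group).

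Within BLOC-2 the ratios of Hps6 to both partners were lower in stretched libraries. Hps6 had 0.231, 0.230 and 0.215 counts per count of Hps3 in static libraries and 0.167, 0.166 and 0.172 in stretched ones, a log2 difference of -0.42. Against Hps5 the ratio was 0.186, 0.191 and 0.180 in static and 0.141, 0.147 and 0.142 in stretched libraries, a log2 difference of -0.37. Neither pair overlapped between groups (exact permutation p = 0.1 for each). The ratio of Hps5 to Hps3 did overlap, at 1.24, 1.21 and 1.19 in static and 1.18, 1.13 and 1.21 in stretched libraries (exact permutation p = 0.3). Ratios do not remove effects of GC content or length that differ between libraries, and Hps6 and Hps3 lay at opposite ends in GC content. Between the log2 fold changes fitted with the combined offset, the difference was -0.23 for Hps6 and Hps3, -0.26 for Hps6 and Hps5 and 0.03 for Hps5 and Hps3, the last with its sign turned.

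**Figure D4:**
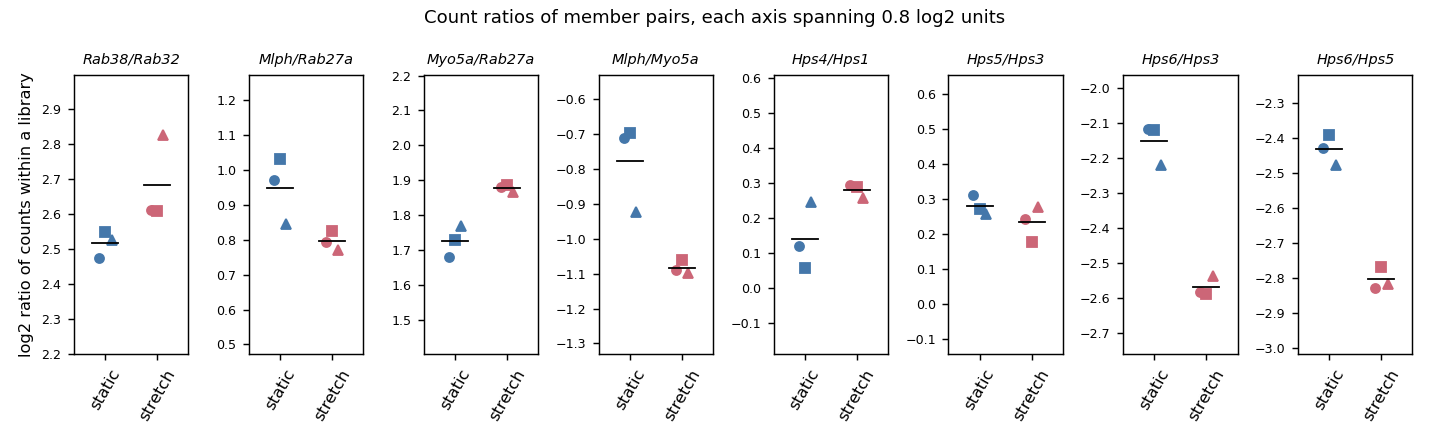
Log2 ratio of the counts of 2 members within each library, for the 8 pairs, with blue for static, red for stretch, a marker shape for each replicate and a black bar for the group mean; every panel spans 0.8 log2 units. Static and stretched libraries overlap only for Hps5/Hps3, and the widest gap is that of Hps6/Hps3, -0.42 on the log2 scale. How often ratios of other gene pairs overlap was not examined, and 58.5% of single tested genes did not overlap between groups.

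Of the 3 genes that tie melanosomes to actin, only the motor passed the test. Myo5a (Entrez Gene 17918, chromosome 9, 75069799 to 75223688), the dilute gene, was at 589, 606 and 616 CPM in static and 693, 706 and 669.9 CPM in stretched libraries. All stretched libraries were higher, and Myo5a rose by 14.2% (log2 fold change 0.19, SE 0.0350, edgeR adjusted p = 0.000356). Its transcript of 11702 bases was the longest of the members. With an offset for length alone the log2 fold change was 0.08 (adjusted p = 0.0639), with one for GC content alone 0.14 (adjusted p = 0.00345) and with both 0.06 (adjusted p = 0.149).

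Rab27a (Entrez Gene 11891, chromosome 9, 73044810 to 73097623), the ashen gene, was at 184, 183 and 181 CPM in static and 188, 191 and 184 CPM in stretched libraries. The groups overlapped at the level of static replicate 1 and stretch replicate 3, and the log2 fold change was 0.04 (SE 0.0343, edgeR adjusted p = 0.357). It passed with scaling by library size alone (0.10, adjusted p = 0.0199), and was at 0.02 under the combined offset (adjusted p = 0.631). Its paralog Rab27b was near the detection limit, with 0 to 9 counts in a library, and was not tested.

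Mlph (Entrez Gene 171531, chromosome 1, 90915024 to 90951142), the leaden gene, was at 360.0, 373 and 325 CPM in static and 325, 338 and 313 CPM in stretched libraries. Static replicate 3 lay among the stretched libraries. The log2 fold change was -0.11 (SE 0.0478, edgeR adjusted p = 0.0576). Without static replicate 3 it was -0.17 and passed (adjusted p = 0.000990), and without static replicate 2 it was -0.07 (adjusted p = 0.167). Scaling by library size alone gave -0.05 (adjusted p = 0.331), and the combined offset gave -0.03 (adjusted p = 0.660).

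The balance of these 3 genes was read from ratios within each library as well. Mlph had 0.611, 0.616 and 0.527 counts per count of Myo5a in static libraries and 0.470, 0.479 and 0.467 in stretched ones. The stretched ratios were lower by -0.31 on the log2 scale, and static replicate 3 was the nearest to them. Mlph against Rab27a was at 1.96, 2.04 and 1.80 in static and 1.73, 1.77 and 1.70 in stretched libraries, and Myo5a against Rab27a at 3.21, 3.32 and 3.41 in static and 3.69, 3.70 and 3.65 in stretched libraries. None of the 3 ratios overlapped between groups (exact permutation p = 0.1 for each). The ratios are not corrected for GC content or length. Between the log2 fold changes fitted with the combined offset, the difference was -0.09 for Mlph and Myo5a, -0.05 for Mlph and Rab27a and 0.04 for Myo5a and Rab27a.

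The libraries' own pattern was used to find the genes most like the strongest riser and faller. After centring on their means, the log2 CPM values over the 6 libraries that lay closest to those of Rab32, among 9015 genes of at least 10 CPM, were those of Slc17a5, Leprotl1 and the gene model Gm4262, at Euclidean distances of 0.0819, 0.0909 and 0.0999. Slc17a5, the lysosomal sialic acid exporter gene, went from 31.5 ± 2.30 to 23.4 ± 1.37 CPM (n = 3 per group). For Myo5a they were Ankfn1, Bdh1 and Dnajc7, at distances of 0.0158, 0.0216 and 0.0235. Bdh1, a ketone body enzyme gene, went from 67.4 ± 0.903 to 77.1 ± 1.93 CPM (n = 3 per group).

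Around the members, 11 lists of partner genes held 77 tested genes, of which 15 were called higher and 29 lower. Over all tested genes 24.9% were called higher and 25.9% lower. In either direction 57.1% of the 77 were called, against 50.9% of all tested genes. The median log2 fold change of the 77 was -0.07. In BLOC-1, which acts before BLOC-2 on the same route, 2 of 8 subunits fell and 2 rose, near the share over all tested genes. Bloc1s3, the reduced pigmentation gene, fell from 15.7 ± 0.327 to 10.5 ± 0.222 CPM (n = 3 per group), or 1.498-fold, and passed against 1.2-fold with glmTreat (adjusted p = 0.000530). Snapin fell 1.16-fold, and Dtnbp1, the dysbindin gene, and Bloc1s2 rose 1.09-fold and 1.11-fold. Bloc1s2 did not pass in DESeq2 (adjusted p = 0.0537), nor in edgeR without static replicate 1 (0.0786) or without stretch replicate 1 (0.0588) or 3 (0.0937). The combined offset took Bloc1s2 from 0.15 to 0.08 (adjusted p = 0.176) and Dtnbp1 from 0.12 to 0.20 (adjusted p = 0.000120).

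Of the adaptors that sort pigment enzymes on endosomes, 40.0% of the AP-3 list and 66.7% of the list of AP-1 and Kif13a were called, against 50.9% of all tested genes. In AP-3, 2 of 5 subunits fell: Ap3b1, the pearl gene, from 140.4 ± 6.49 to 127 ± 4.16 CPM and Ap3d1, the mocha gene, from 359 ± 6.10 to 338 ± 4.53 CPM (n = 3 per group). Under the combined offset Ap3d1 was at 0.0026 (adjusted p = 0.954), and it missed the threshold without static replicate 1 and without any of the stretched libraries (edgeR adjusted p = 0.0788 to 0.179). Ap3b1 missed it without stretch replicate 1 (0.0772) and, like Ap3d1, with scaling by library size alone (0.0880 and 0.541). None of the 5 was called higher in edgeR, DESeq2 or limma-voom, and 0 had an unadjusted p under 0.05 in that direction. Of AP-1 and Kif13a, the kinesin that carries AP-1 endosomes outwards, Ap1s2 and Ap1g1 rose (1.17-fold and 1.10-fold) and Kif13a and Ap1b1 fell (1.12-fold each). Ap1s2, Ap1g1 and Ap1b1 lost their call under the combined offset (adjusted p = 0.408, 0.118 and 0.116), and Kif13a without stretch replicate 3 (0.0623) and with scaling by library size alone (0.115).

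The HOPS complex tethers late endosomes to lysosomes. Of its 6 subunits 5 fell and 1 rose, where 25.9% of all tested genes were called lower and 24.9% higher, and Lyst, the beige gene, was not called. The median log2 fold change of the 7 genes was -0.21. Vps33a, the buff coat colour gene, fell from 112 ± 7.15 to 86.7 ± 0.593 CPM (n = 3 per group), and it passed against 1.2-fold with glmTreat (adjusted p = 0.0441). Vps11 and Vps41 fell 1.27-fold and 1.25-fold. Vps16 was the subunit that rose, from 51.7 ± 0.929 to 60.3 ± 1.96 CPM (n = 3 per group).

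Regulators and partners of the GTPases were divided, where 25.9% of all tested genes were called lower and 24.9% higher. In either direction the share called in each list of this paragraph lay near the 50.9% of all tested genes. Of the Rab27 list 6 of 12 genes were tested, with 2 lower and 1 higher: Madd, an exchange factor for RAB27 proteins, fell 1.16-fold and Tbc1d10b, of a family of GTPase activators, fell 1.19-fold, while Unc13d was called at the low level of 1.04 ± 0.238 CPM under stretch (n = 3) and did not pass in DESeq2 (adjusted p = 0.135) or without static replicate 1 or 2 or stretch replicate 1 or 2 (edgeR adjusted p = 0.0632 to 0.165). Of the 5 Rab32 and Rab38 partners, Ankrd27, the effector VARP, rose 1.08-fold, Sgsm2, of a family of RAB GTPase activators, rose 1.11-fold, and Lrrk1, the paralog of the RAB kinase gene Lrrk2, fell 1.23-fold. Ankrd27 did not pass in DESeq2 (adjusted p = 0.0801), nor in edgeR when any library other than static replicate 2 was left out (0.0649 to 0.0765). Under the combined offset the log2 fold change of Tbc1d10b went from -0.25 to -0.13, that of Sgsm2 from 0.15 to 0.26 and that of Ankrd27 from 0.11 to 0.17, all still called (adjusted p = 0.0115, 4.25e-05 and 0.000827). Of the 4 genes for attaching lipid to RAB proteins 2 rose, Rabggtb, a subunit of the geranylgeranyl transferase, by 1.18-fold and Chml, an escort protein gene, from 3.795 ± 0.485 to 6.43 ± 0.616 CPM (n = 3 per group). None of these 4 was called lower in edgeR, DESeq2 or limma-voom, and 0 had an unadjusted p under 0.05 in that direction.

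Among the motors and other motility genes 9 of 18 tested fell and 2 rose, where 25.9% of all tested genes were called lower and 24.9% higher. In either direction 61.1% were called, against 50.9% of all tested genes. Dync1h1, the heavy chain of the motor that takes melanosomes towards the cell centre, fell from 1151 ± 59.4 to 941 ± 32.7 CPM (n = 3 per group). Dynll2, a light chain that also binds myosin Va, fell 1.25-fold, and Myo6, the motor that moves towards the minus ends of actin, fell 1.30-fold. Those that rose were Rab17, a GTPase linked to melanosome release, by 1.30-fold, and Mreg, the melanoregulin gene (dilute suppressor), from 41.0 ± 2.11 to 49.0 ± 3.32 CPM (n = 3 per group). Of the 5 SNAREs, which fuse carriers with melanosomes, none was called in edgeR, DESeq2 or limma-voom, and 0 had an unadjusted p under 0.05. The highest in CPM, which is not corrected for length, were Stx12, at 80.6 ± 1.36 and 82.0 ± 0.861 CPM, and Vamp3, at 54.6 ± 3.09 and 57.4 ± 1.77 CPM in static and stretched cells (n = 3 per group). Vamp3 passed without static replicate 2 (adjusted p = 0.0377) and with scaling by library size alone (0.0180).

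Of the 10 cargo genes 5 were called lower and 2 higher, against 25.9% and 24.9% of all tested genes. Gpr143, a melanosomal receptor gene, Slc24a5, an ion exchanger gene, and Tyrp1, a pigment enzyme gene, fell 1.39-fold, 1.27-fold and 1.24-fold, and Oca2 and the copper transporter gene Atp7a rose 1.36-fold and 1.12-fold. The combined offset took Atp7a from 0.16 to 0.11, still called (adjusted p = 0.0188). Of the transcription factors that act on many of these genes, Mitf rose 1.30-fold and Tfe3 fell from 84.8 ± 3.98 to 60.5 ± 2.15 CPM (n = 3 per group). Tfeb was not called (log2 fold change 0.06).

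**Figure D5:**
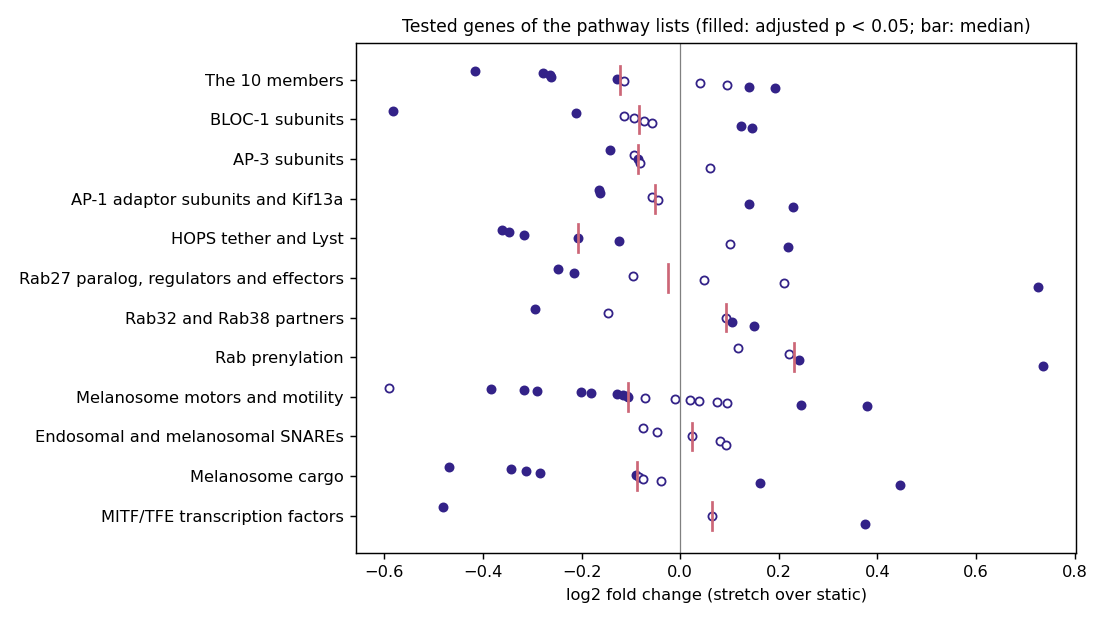
Log2 fold change, stretch over static, of each tested gene of the 10 members and of the 11 partner lists; filled points passed an adjusted p of 0.05 and the red bar is the median of the list. HOPS has the lowest median of the partner lists, -0.21, and no SNARE passed.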

How the data were processed

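The authors deposited estimated counts per gene as unscaled whole numbers. The submitters' processing notes name Salmon 1.4.0 with mm10 and GRCm38; the annotation, gene summing and strand setting were not given in the sources used here. No gene had under 10 counts summed over the libraries. Entrez Gene numbers were matched to RefSeq symbols of GRCm38.p6 for 14875 of 14883 genes, and the 8 others (0.0715% to 0.0825% of counts) stayed in. Lengths and GC content came from the longest GENCODE M21 transcript (12283 of 12377 tested genes).

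Rounded counts were fitted in edgeR 4.0.16 (R 4.3.3) by quasi-likelihood with group as the sole term, after filterByExpr (minimum count 10) and TMM scaling, with Benjamini-Hochberg adjustment over all tested genes and two-sided tests. The biological coefficient of variation was 3.60%. Pair ratios used a pseudocount of 0.5. Within groups replicates differed by more than sampling noise. The mean chi-square per gene was 3.36 to 7.71 between static libraries, highest for replicates 2 and 3, and 1.88 to 2.29 between stretched libraries. Alternatives used other scalings, filters, DESeq2 1.42.0, limma-voom (limma 3.58.1), glmTreat, a replicate block, thinning, a natural spline offset (5 degrees of freedom each) for GC content and length, and each library left out; offsets for either alone, pair differences under the offset and the coding length were added after seeing the data. The procedure was tested on simulated data in which few genes changed, with no effect of GC content or length. In the real data 50.9% of tested genes were called, so the simulation does not check the scaling or the offsets in that setting.

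The members and lists were chosen with earlier results of these data known. Named genes were all members, up to 3 called genes of lowest p per direction and list (2 most abundant if none), and the 3 genes closest in pattern to the lowest-p member of each direction.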

Additional observations from a re-analysis of the deposited data

How the results depend on the processing

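Of the 10 members, 2 were called higher and 5 lower, with a median log2 fold change of -0.12. The counts were 4 higher with scaling by library size alone, 1 higher and 3 lower under the combined offset for GC content and length as well as under GC alone, and 1 higher with the length offset alone. With glmTreat 0 were higher (0 at an unadjusted p under 0.05, and 2 higher in both DESeq2 and limma-voom) and 1 lower, and over all genes 679 were higher and 913 lower, against 3087 and 3211. The median log2 fold change of the members was -0.0609 with library size scaling, -0.0300 under the combined offset and -0.0437 under GC alone. Leaving out 1 library gave 1 to 3 members higher and 4 to 5 lower. The replicate block gave 2 higher and 5 lower (Mlph passed and Hps4 did not, adjusted p = 0.0291 and 0.0589) and 5967 calls over all genes, and the 3 same-numbered pairs share only a number (correlations of deviations -0.00317, 0.0162 and -0.0670). Rab32, Rab38 and Hps1 stayed called in every fit other than glmTreat, where Rab32 alone did. Among partner genes named, Ap3d1 changed sign under the combined offset (0.0026), as did Stx12 (-0.0361, and -0.0492 under GC alone). The 8 pair ratios kept their direction with every pseudocount and library left out. As differences of log2 fold changes under the combined offset, Mlph/Rab27a log2 ratio, stretch minus static, was -0.0478, Myo5a/Rab27a 0.0379, Mlph/Myo5a -0.0857, Hps6/Hps3 -0.231 and Hps6/Hps5 -0.258, each nearer to 0 by more than the spread between replicates, and Hps5/Hps3 changed sign (0.0269). The cause of these differences was not tested. The coding length planned from proteins could not be had, and annotated coding sequences were used. Depth limits genes of few counts, such as Rab27b and Unc13d.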
